A study of Mus musculus with 18 samples.

Results

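Antisense RNA genes are long non-coding genes that lie across a protein-coding gene on the other DNA strand, here called the partner. The 200 described here were selected by measured abundance. They were the autosomal genes of the biotype antisense in GENCODE M21 with the highest read count summed over all 18 libraries, after leaving out *Kcnq1ot1*, *Airn*, *Nespas*, *Peg13*, *Gas5*, *Meg3*, *Rian*, *Mirg* and symbols beginning with Snhg. They were taken from 2804 such genes, 2566 of which had at least 1 read, among 54446 genes with deposited counts. Their summed counts ran from 1761 to 127255 with a median of 3549, and they held 71.8% of the reads on all 2804 antisense genes. The levels chose the genes and are given as a description. Because reads of both genotypes were summed, a gene could be chosen through 1 genotype. By the reads of each genotype alone, 170 were among the 200 most abundant in both, 21 in WT only and 9 in *Tet2*-KO only. The latter 30 are included in the counts of calls below. Their genotype calls are not evidence of a difference, since the choice favoured one. At the edge of the selection, *Gm15943* had 1767 reads and *5031415H12Rik* 1761 as the last included, and *Gm16168* 1760 and *Pla2g10os* 1749 as the first left out.

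The libraries held nascent RNA of mouse embryonic stem (mES) cells that had taken up 5-ethynyl uridine (EU) at 1 mM over 10, 20 or 40 min. The labelled RNA was captured and sequenced together with ERCC spike-in RNA. WT cells and *Tet2*-KO cells gave 3 replicates at each time, in 6 groups. All groups were grown in serum with LIF and the inhibitors CHIR99021 and PD0325901, and cleared of feeder cells by passaging. The methods name a single WT line and a single *Tet2*-/- line, so the replicates were dishes of these lines, and *p* values measure the spread between dishes and not between knockout clones. Between 17931614 and 23069143 reads per library fell on genes and between 44162 and 512186 on ERCC transcripts. A level is given as reads per 1000 ERCC reads. By the methods, the spike-in went into the eluted RNA in an amount set by the total RNA of the sample. A level is therefore relative to total RNA and not to the number of cells. The level of *Tet2* itself, counted over the whole gene, was 27.8 ± 2.46 (SD, n = 3) in WT and 51.0 ± 2.76 in *Tet2*-KO at 10 min. *Tet2* reads were thus not lost in the *Tet2*-KO libraries, the altered part of the gene was not analysed here, and these values do not check the genotype labels. Markers of mES cells summed to 80.8 to 96.9 in WT and 124 to 137 in *Tet2*-KO at 10 min. Most genes were higher in *Tet2*-KO on this scale. With libraries scaled on the genes themselves (TMM), 2 of the 7 tested mES markers were higher and 4 lower, averaged over times. Primitive endoderm markers summed to 0.881 to 1.11 in WT and 1.66 to 1.92 in *Tet2*-KO at 10 min. Feeder fibroblast markers summed to 0.908 to 1.19 and 0.836 to 1.07 at that time, and to 0.849 to 1.04 in WT and 2.97 to 3.54 in *Tet2*-KO at 20 min. The 2-cell-like markers summed to 1.02 to 1.12 in WT and 0.320 to 0.378 in *Tet2*-KO at 10 min. The part of these cell populations in the results was not tested.

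An antisense RNA can arise from a promoter that fires in both directions, from within an intron of its partner or from a separate promoter beyond the partner's end. Such RNAs are commonly short-lived in the nucleus, where the exosome and its adaptor complexes degrade them, and some have been shown to raise or to silence the gene that they overlap. TET2 oxidizes 5-methylcytosine, which in mammalian DNA lies mostly at CpG dinucleotides, the letters C and G in a row on 1 strand. Methylation was not measured in these libraries.

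Of the 200 genes, 189 overlapped at least 1 protein-coding gene on the other strand and 11 did not. Where several overlapped (44 genes), the one with the longest shared span was taken as the partner. There were 184 different partners, 5 of which served 2 antisense genes each. The antisense gene and its partner were tail to tail, overlapping at their ends, in 71 cases (35.5%, against 14.1% of the 2804 antisense genes). It lay inside the partner in 55 cases (27.5% against 54.3%), head to head with it in 49 (24.5% against 20.6%) and around it in 14 (7.0% against 3.35%). Their median span was 20436 bases and their median exon length 1250 bases. Only 16 carried a symbol made from that of the partner with the suffix os or as, and 124 were named Gm with a number.

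The windows printed here belong to genes to which the results return, the promoter beside *Gm42567*, the one that holds the start of the most abundant gene, both promoters of the *Panct2* pair and the one of the gene with the largest genotype difference. *Panct2* was chosen after its values were seen. Each window holds 250 bases before and 50 after a RefSeq start, 5′ to 3′ on the strand of the named gene, on GRCm38.p6, and capitals mark CpG. They are *Tet2* at chr3:133544341-133544640 (minus strand), *Pcbp1* at chr6:86526140-86526439 (minus), *Slco4c1* at chr1:96872122-96872421 (minus), *Panct2* at chr1:96870876-96871175 (plus) and *Gm36816* at chr6:67008938-67009237 (minus).
Tet2: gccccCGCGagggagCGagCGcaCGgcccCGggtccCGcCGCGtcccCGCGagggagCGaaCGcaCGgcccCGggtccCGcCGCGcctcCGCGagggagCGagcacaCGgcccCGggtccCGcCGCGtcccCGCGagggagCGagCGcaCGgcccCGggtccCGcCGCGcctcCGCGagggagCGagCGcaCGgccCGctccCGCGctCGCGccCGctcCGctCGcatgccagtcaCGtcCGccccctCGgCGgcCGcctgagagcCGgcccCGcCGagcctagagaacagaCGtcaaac
Pcbp1: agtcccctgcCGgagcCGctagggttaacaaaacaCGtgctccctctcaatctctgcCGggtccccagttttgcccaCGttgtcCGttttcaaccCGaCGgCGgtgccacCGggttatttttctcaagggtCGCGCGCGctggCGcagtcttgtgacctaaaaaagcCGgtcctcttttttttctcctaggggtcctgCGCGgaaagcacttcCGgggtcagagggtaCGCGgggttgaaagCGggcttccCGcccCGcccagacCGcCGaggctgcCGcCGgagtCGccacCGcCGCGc
Slco4c1: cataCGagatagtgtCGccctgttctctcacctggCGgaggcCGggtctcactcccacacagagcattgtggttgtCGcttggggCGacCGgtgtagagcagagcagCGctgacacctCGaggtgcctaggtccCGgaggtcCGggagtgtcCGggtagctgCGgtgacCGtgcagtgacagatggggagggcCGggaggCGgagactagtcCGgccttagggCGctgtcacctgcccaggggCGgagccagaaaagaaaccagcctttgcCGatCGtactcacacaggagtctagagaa
Panct2: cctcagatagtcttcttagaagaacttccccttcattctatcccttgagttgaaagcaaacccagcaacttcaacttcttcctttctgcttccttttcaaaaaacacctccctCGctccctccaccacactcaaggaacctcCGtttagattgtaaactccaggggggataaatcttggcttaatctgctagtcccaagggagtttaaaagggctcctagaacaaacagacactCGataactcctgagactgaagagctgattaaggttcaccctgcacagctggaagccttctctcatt
Gm36816: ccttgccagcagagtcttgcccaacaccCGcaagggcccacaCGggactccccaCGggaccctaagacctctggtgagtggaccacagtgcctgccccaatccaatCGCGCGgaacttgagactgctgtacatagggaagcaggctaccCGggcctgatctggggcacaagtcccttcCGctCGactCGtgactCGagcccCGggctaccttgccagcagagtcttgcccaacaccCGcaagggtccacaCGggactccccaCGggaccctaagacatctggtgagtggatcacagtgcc
The *Tet2* window held 57 CpG, the *Pcbp1* window 32, the *Slco4c1* window 21, the *Gm36816* window 15 and the *Panct2* window 3. The annotated start of *1600020E01Rik* lay at position 193 of the *Pcbp1* window, 58 bases before the RefSeq start of *Pcbp1*. The start of *Gm42567* lay 707 bases before the RefSeq start of *Tet2* and therefore outside the window, although the GENCODE spans of both genes share 43 bases. The *Gm36816* window shared at least 1 stretch of 30 bases with the windows of 3 other genes, which 12.5% of all windows did with another gene. Its GENCODE start lay 273 bases before the RefSeq start.

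RefSeq windows were matched by symbol, with a start within 500 bases of the GENCODE start, for 67 of the 200 antisense genes and 126 of the 184 partners. The median number of CpG was 11 in the antisense windows and 19.5 in those of the partners, against 7 over 27025 RefSeq genes. The letters GGGCGG, read on both strands and overlapping a CpG by their own letters, stood in 40.3% of antisense windows, 62.7% of partner windows and 35.9% of all. The letters CCAAT stood in 32.8%, 35.7% and 37.9%, and TATAAA in 10.4%, 8.73% and 14.2%. A match of letters is not a binding site.

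How the reads of overlapping genes were counted bears on every pair, and it was read from the counts themselves. Of 5855 genes that lay wholly inside a gene on the other strand, with no gene on their own strand, 74.6% had at least 1 read, against 70.7% of 26048 genes that overlapped no other gene. Of 5495 genes wholly inside a gene on their own strand, 0.109% had a read. Reads were therefore assigned by strand over the whole gene span, introns included, and dropped where genes of the same strand overlap. *Gm28960*, inside *Nmnat2*, had 5858 reads over a span of 23027 bases. Reads of the partner counted on the wrong strand would be a background for genes inside it. Over 1349 antisense genes inside a tested partner and clear of genes on their own strand, the antisense reads per kb were 7.10% of those of the partner at the median and at most 0.620% for the lowest 10% of genes. The 53 of these among the 200 had a median of 72.5% and a lowest value of 3.94%. These values are not for WT alone, where the antisense to partner level per kb of span was 0.0354 for *Gm36816*, inside *Gng12*.

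Levels of different genes were compared per length. Over the 182 pairs in which both genes passed the filter on low counts, the median log2 of antisense over partner level in WT was 0.07 per kb of merged exons, with quartiles at -1.55 and 2.12. Per kb of gene span, the length over which the reads were counted, it was -0.72, with quartiles at -2.81 and 1.23. The sign of the median thus depended on the length used. Per kb of span the antisense gene was the higher of the pair in 70 of 182 pairs in WT, and per kb of exons in 94. By arrangement, the median antisense to partner level per kb of span in WT was 0.267 for head to head pairs, 0.694 for genes inside the partner, 0.286 for genes around it and 0.885 for tail to tail pairs.

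The most abundant of the antisense genes was *1600020E01Rik* on chromosome 6 (86526247 to 86582466, plus strand), head to head with *Pcbp1*, which encodes a poly(C)-binding protein. It held 9.76% of the reads on the 200 genes. The next were *Gm29724* with 65237 reads, tail to tail with the metalloprotease gene *Adamts8*, and *4732471J01Rik* with 39258, around the adhesion gene *Ceacam2*. *Gm26542* had 30649 reads, tail to tail with *Maml1*, a coactivator of Notch signalling. *Gm38825* had 29869, head to head with *Serbp1*, which encodes an RNA-binding protein. *Gm10069* had 29085, tail to tail with the protease inhibitor gene *Pzp*. *Tbx3os1* had 27929, head to head with *Tbx3*, a transcription factor of the pluripotency network. The last of the 10 were *1600010M07Rik* with 27194 reads around the nuclear import gene *Ipo7*, *1110002L01Rik* with 25403 beside the kinesin gene *Kif3c*, and *E130307A14Rik* with 24329 beside *Traf3ip2*, an adaptor of interleukin-17 signalling. *Gt(ROSA)26Sor*, the locus commonly used for transgene insertion, came next with 22058 reads and *Thumpd3* as its partner.

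The level of the antisense genes was higher in *Tet2*-KO than in WT for most, as it was for most genes. All 200 passed the filter on low counts. With both genotypes averaged over the 3 times, the quasi-likelihood test of edgeR (library sizes from ERCC reads, Benjamini-Hochberg adjusted) called 165 of 200 higher and 18 lower, that is 82.5% and 9.0%. In bulk RNA, fewer cells that express a gene and less RNA per cell cannot be told apart. Over all 19910 genes tested, 80.5% were called higher and 4.15% lower. The median log2 fold change was 0.62 for the antisense genes and 0.70 for all genes. At 10 min, 167 were higher and 11 lower (79.0% and 2.1% of all genes), with a median of 0.87 against 0.96. At 20 min, 100 were higher and 23 lower (53.7% and 4.86%), with a median of 0.32 against 0.45. At 40 min, 153 were higher and 12 lower (68.2% and 2.84%), with a median of 0.71 against 0.67. Among the 170 genes abundant in both genotypes, a split made after the data were seen, 150 were higher and 6 lower. Of the 21 chosen through WT, 12 were lower, so most of the 18 lower genes were of that kind. With TMM scaling, which left the median of all genes at 0.0027, 64 were higher and 83 lower (28.6% and 27.9% of all genes).

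The *Tet2*-KO libraries lay above every WT library at each of the 3 labelling times for 96 of the 200 genes and below for 7, which was so for 51.6% and 1.56% of all genes tested. The median of the group mean levels over the 200 genes was 0.497 in WT and 0.919 in *Tet2*-KO at 10 min, 1.57 and 1.93 at 20 min, and 2.05 and 3.45 at 40 min. As a share of the gene reads of a library, which the spike-in does not enter, the 200 genes took 0.389 to 0.395% in WT and 0.357 to 0.368% in *Tet2*-KO at 10 min. At 20 min they took 0.378 to 0.391% and 0.346 to 0.359%. At 40 min the order was the other way round, with 0.309 to 0.321% in WT and 0.332 to 0.337% in *Tet2*-KO. The genotypes did not overlap at any time.

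*Gm36816*, inside *Gng12* on chromosome 6 (66990031 to 67009260, minus strand), had the largest difference. *Gng12* encodes a gamma subunit of heterotrimeric G proteins. The WT libraries held 20, 12 and 8 reads of *Gm36816* at 10 min, 12, 9 and 15 at 20 min, and 6, 12 and 15 at 40 min. The *Tet2*-KO libraries held 648, 469 and 491 reads at 10 min, 563, 559 and 489 at 20 min, and 702, 702 and 600 at 40 min. Each of the 9 *Tet2*-KO libraries was above all WT libraries. With 109 reads in WT and 5223 in *Tet2*-KO, it was chosen through *Tet2*-KO alone. The log2 fold change was 6.42 ± 0.11 (SE), while that of *Gng12* was 0.69 ± 0.05. Per 100 *Gng12* reads there were 0.274 to 0.809 reads of *Gm36816* in WT (median 0.566) and 24.96 to 35.14 in *Tet2*-KO (median 28.5), a log2 ratio difference of 5.76 ± 0.16.

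*4930533K18Rik*, tail to tail with *Bicc1*, which encodes an RNA-binding protein of early development, followed. Its level in WT was 0.908, 0.783 and 0.849 at 10 min, 2.33, 2.49 and 2.55 at 20 min, and 4.28, 4.42 and 3.43 at 40 min. In *Tet2*-KO it was 5.07, 4.44 and 4.89 at 10 min, 10.2, 10.9 and 10.7 at 20 min, and 27.1, 23.8 and 23.9 at 40 min. The genotypes were apart at every time, and the log2 fold change was 2.41 ± 0.06 (SE, adjusted *p* = 2.77e-137, edgeR) against 0.48 ± 0.07 for *Bicc1*. The next highest were *Gm48094* inside *Tpd52l1* with 2.27 ± 0.11 (610 reads in WT and 1618 in *Tet2*-KO, chosen through *Tet2*-KO), *Gm20548* inside *Wdfy3*, a gene of selective autophagy, with 2.19 ± 0.09, and *Gm28836* beside the glutathione transferase gene *Gsta3* with 2.10 ± 0.07. *Gsta3* itself rose by 1.49 ± 0.07.

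**Figure D1:**
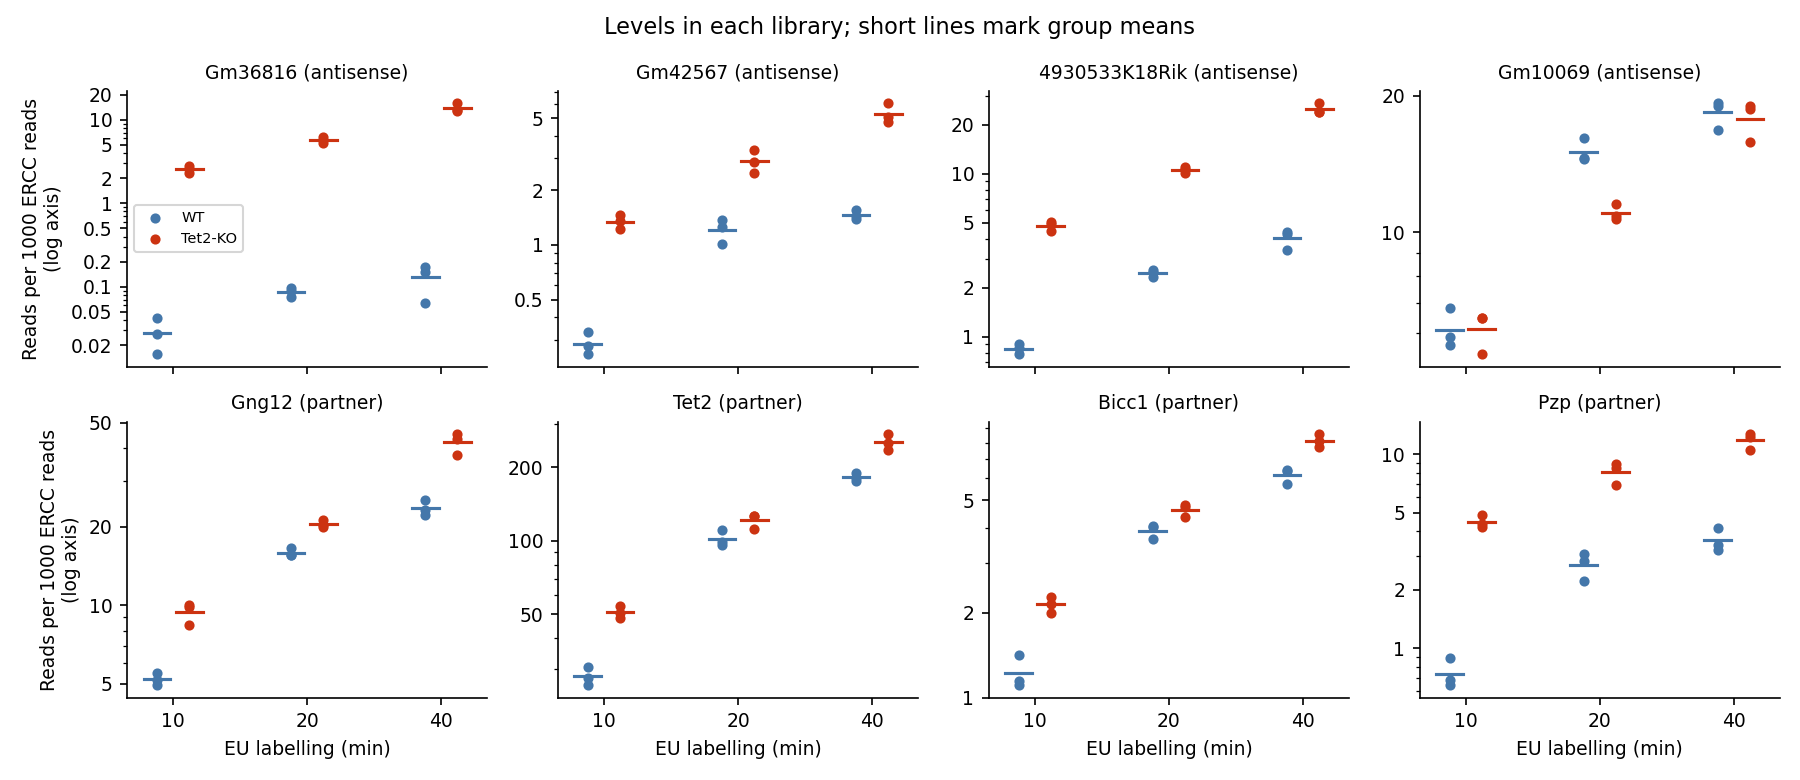
Level of 4 antisense genes (upper row) and their partners (lower row) in each of the 18 libraries, in reads per 1000 ERCC reads on log axes, against EU labelling time in min, with WT in blue and *Tet2*-KO in red. *Gm36816*, *Gm42567* and *4930533K18Rik* lay higher in *Tet2*-KO at each time, while *Gm10069* overlapped between genotypes at 10 and 40 min and *Pzp* lay higher in *Tet2*-KO.

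*Gm42567* is of interest by its place, since its partner is *Tet2*, the gene targeted in the knockout line. It spans 133545097 to 133585053 on the plus strand of chromosome 3. Reads of *Gm42567* numbered 132, 145 and 128 in WT at 10 min, 186, 151 and 155 at 20 min, and 147, 110 and 124 at 40 min. In *Tet2*-KO they numbered 287, 271 and 276 at 10 min, 245, 299 and 263 at 20 min, and 268, 262 and 229 at 40 min. Every *Tet2*-KO library held more than every WT library, although the *Tet2*-KO libraries held fewer reads in total at the median. The level was 0.286 ± 0.042 (SD, n = 3) in WT and 1.34 ± 0.12 in *Tet2*-KO at 10 min, 1.21 ± 0.18 and 2.89 ± 0.43 at 20 min, and 1.46 ± 0.08 and 5.29 ± 0.69 at 40 min. Its log2 fold change was 1.78 ± 0.09 (adjusted *p* = 3.38e-64), and that of *Tet2* 0.54 ± 0.05. The ratio to *Tet2* rose from a median of 1.01 reads per 100 *Tet2* reads in WT (0.732 to 1.39) to 2.27 in *Tet2*-KO (2.01 to 2.79), by 1.24 ± 0.08 on the log2 scale (adjusted *p* = 4.16e-15, limma). Which part of *Tet2* was altered in the line was not analysed here, and a difference at this locus due to the alteration itself cannot be told apart from other differences between the lines.

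*Panct2*, head to head with the organic anion transporter gene *Slco4c1*, was chosen after its values were seen. Its level in WT was 0.580 ± 0.036 at 10 min, 1.71 ± 0.02 at 20 min and 3.11 ± 0.33 at 40 min, and in *Tet2*-KO 2.30 ± 0.09, 5.65 ± 0.48 and 10.5 ± 1.05. There were 28.5 to 36.0 reads per 100 *Slco4c1* reads in WT and 68.3 to 92.5 in *Tet2*-KO, with no overlap. The log2 difference was 1.83 ± 0.07 for the level and 1.34 for the ratio (adjusted *p* = 4.88e-20).

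Among the 18 genes called lower, *Gm16233* beside *Clca4a*, a gene of a chloride channel accessory protein, stood lowest at -1.94 ± 0.10 on the log2 scale. Its WT libraries held 313 to 400 reads and its *Tet2*-KO libraries 37 to 73. *Clca4a* had 109 reads in all 18 libraries together and fell by 1.61 ± 0.48. *Gm28376* stood at -1.28 ± 0.11 beside the junctophilin gene *Jph1* (0.06 ± 0.09, adjusted *p* = 0.496). *Gm47271* inside *Neo1*, a receptor gene for netrins, stood at -1.06 ± 0.12 and *Gm17089* inside the ETS repressor gene *Etv6* at -0.94 ± 0.12. These 4 were chosen through WT. *Gm31323* beside *Vps26c*, abundant in both genotypes, fell by 0.87 ± 0.09 (adjusted *p* = 1.89e-19, edgeR). All 5 stayed below WT with TMM scaling, which lowers every value by about 0.70.

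Relative to the partner, the antisense genes differed between genotypes in both directions. The ratio of 2 genes in a library depends on neither the spike-in nor the library size. Limma, fitted over all 1001 antisense and partner pairs that passed the filter, called the ratio higher in *Tet2*-KO for 43 of the 182 pairs and lower for 64 (23.6% and 35.2%), against 14.0% and 16.6% of all pairs tested. The median log2 difference was -0.06, and 0.03 over all pairs. Among genes abundant in both genotypes, 35 of 156 pairs were higher and 52 lower. The excess of lower ratios was seen at 10 min, with 29 higher and 42 lower (9.89% and 9.79% of all pairs), and at 20 min, with 29 and 37 (5.59% and 7.69%). At 40 min it was the other way round, with 41 higher and 28 lower (8.09% and 6.19%) and a median of 0.07. The 200 genes were chosen for having more reads than the other antisense genes, and the part of depth in these shares was not tested. Genotypes did not overlap at any labelling time in 23 pairs with a higher ratio and in 20 with a lower one, against 4.9% and 4.6% of all pairs.

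The highest ratio differences after *Gm36816* were *4930533K18Rik* with 1.93 ± 0.06, *Gm20548* with 1.61 ± 0.11, *Gm48094* with 1.60 ± 0.10 and *1500015A07Rik*, tail to tail with *Afap1l1*, with 1.55 ± 0.11. *Gm48094* and *1500015A07Rik* were chosen through *Tet2*-KO, the others through both genotypes. Per 100 partner reads, *4930533K18Rik* had 55.3 to 79.4 reads in WT and 216 to 317 in *Tet2*-KO. *Gm48094* had 1.49 to 2.68 in WT and 4.62 to 10.1 in *Tet2*-KO. *Gm20548* had 1.22 to 2.35 and 4.46 to 5.29. In each the ranges of the 9 libraries were apart.

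The lowest was *Gm10069* against *Pzp*. Its level was 6.11 ± 0.61 in WT and 6.12 ± 0.62 in *Tet2*-KO at 10 min, 15.1 ± 0.91 and 11.0 ± 0.45 at 20 min, and 18.4 ± 1.34 and 17.8 ± 1.75 at 40 min, so the libraries of the genotypes were apart at 20 min and overlapped at 10 and 40 min. Averaged over times it fell by 0.16 ± 0.06 (adjusted *p* = 0.00464, edgeR). *Pzp* stood at 0.741 ± 0.130 and 4.47 ± 0.33 at 10 min, 2.70 ± 0.42 and 8.07 ± 1.00 at 20 min, and 3.59 ± 0.50 and 11.8 ± 1.15 at 40 min. The antisense reads per 100 *Pzp* reads were 405 to 875 in WT and 124 to 155 in *Tet2*-KO, and the log2 ratio fell by 2.13 ± 0.07 (adjusted *p* = 5.31e-24). *Gm28960* fell by 1.40 ± 0.07 against *Nmnat2*, an enzyme of NAD synthesis (adjusted *p* = 1.54e-18, limma), with 17.7 to 22.4 reads per 100 in WT and 5.67 to 8.56 in *Tet2*-KO. Of the genes chosen through WT, *Gm47271* stood at -1.61 ± 0.12, from 3.13 to 5.48 reads per 100 *Neo1* reads in WT to 0.831 to 1.56 in *Tet2*-KO. *Gm17089* stood at -1.53 ± 0.11 against *Etv6* and *Gm28376* at -1.34 ± 0.12 against *Jph1*. No range overlapped between genotypes for these pairs.

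Of the 10 most abundant genes, 9 were called higher in level in *Tet2*-KO, from 0.12 ± 0.05 for *1600020E01Rik* (adjusted *p* = 0.0244, edgeR) to 1.42 ± 0.05 for *Gm29724* on the log2 scale, and *Gm10069* lower. By time, *1600020E01Rik* was called higher at 10 min (0.42) and lower at 20 min (-0.21, adjusted *p* = 0.0249), and was not called at 40 min (0.14). The averaged call for *1600020E01Rik* was lost in 7 of the 18 fits without a library, and TMM turned it to -0.58. TMM also turned *Gm26542* from 0.62 to -0.0686 and *1110002L01Rik* from 0.66 to -0.032. Relative to the partner, the ratio rose by 0.61 ± 0.04 for *E130307A14Rik* (adjusted *p* = 1.78e-13) and by 0.32 ± 0.09 for *1110002L01Rik*. Averaged over times, it fell by 0.29 ± 0.05 for *1600020E01Rik*, by 0.39 ± 0.13 for *Gm29724*, by 0.24 ± 0.04 for *1600010M07Rik* and by 0.13 ± 0.03 for *Tbx3os1*. The averaged differences for *Gm26542* (-0.07), *Gm38825* (-0.03) and *4732471J01Rik* (-0.12) did not pass the test. At 40 min alone the ratio difference was 0.15 for *1600020E01Rik* and 0.10 for *Tbx3os1*, neither called. It was -0.17 for *Gm29724* and -0.28 for *1600010M07Rik*. *Gm38825* held to 7.52 to 9.29 reads per 100 *Serbp1* reads over all 18 libraries. Taking the partner with the nearest start in place of the longest overlap turned the direction for *Gm29724* to 0.48 (*Zbtb44* in place of *Adamts8*) and for *1110002L01Rik* to -0.15 (*Asxl2* in place of *Kif3c*). The call for *Gm29724* was also lost without WT replicate 1 at 10 min (adjusted *p* = 0.0530) or at 20 min (adjusted *p* = 0.0667, limma).

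The difference of the antisense gene and that of its partner were set side by side across the 182 pairs. Pearson's r was 0.41 and Spearman's rho 0.42, as a description over genes that share libraries and are not independent replicates. By arrangement r was 0.48 over 48 head to head pairs, 0.48 over 66 tail to tail pairs, 0.37 over 55 genes inside the partner and 0.25 over 13 around it. Spearman's rho gave another order, with 0.43 head to head, 0.26 tail to tail, 0.54 inside the partner and 0.21 around it. Without *Gm36816*, the single gene past 4 on the log2 scale, r was 0.49. Joint calls were counted for these 182 pairs only and not over all 1001, and 80.5% of all genes were called higher. The counts are therefore a description. Both genes were called higher in 140 pairs and both lower in 6. In 7 pairs the antisense gene was called lower and the partner higher, and in 1 pair the reverse. These 7 were *Gm10069* with *Pzp*, *Gm28960* with *Nmnat2*, *Gm31323* with *Vps26c*, *1700034P13Rik* with *Vcpip1*, *Gm17089* with *Etv6*, *Gm47271* with *Neo1*, and *1700060O08Rik* with the neuronal transcription factor gene *Npas3*. *Gm10069*, *Gm28960* and *Gm31323* were abundant in both genotypes, and the other antisense genes of these pairs were chosen through WT. With TMM scaling, 34 pairs were called higher for both genes, 34 lower for both and 34 in opposite directions, 21 of these with the antisense gene lower and the partner higher. Of the 7 pairs above, *Pzp* (1.28) and *Nmnat2* (0.17) were still called higher and their antisense genes lower. *Vps26c*, *Etv6* and *Neo1* were then called lower, and *Vcpip1* and *Npas3* were not called. The single reverse pair was *Junos*, head to head with the immediate early gene *Jun*. *Jun* fell by 0.47 ± 0.08 while *Junos* stood at 0.22 ± 0.10 (adjusted *p* = 0.0357), a call that 8 of the 18 fits without a library lost and TMM turned to -0.47. The ratio of *Junos* to *Jun* rose by 0.69 (adjusted *p* = 2.33e-06, limma).

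**Figure D2:**
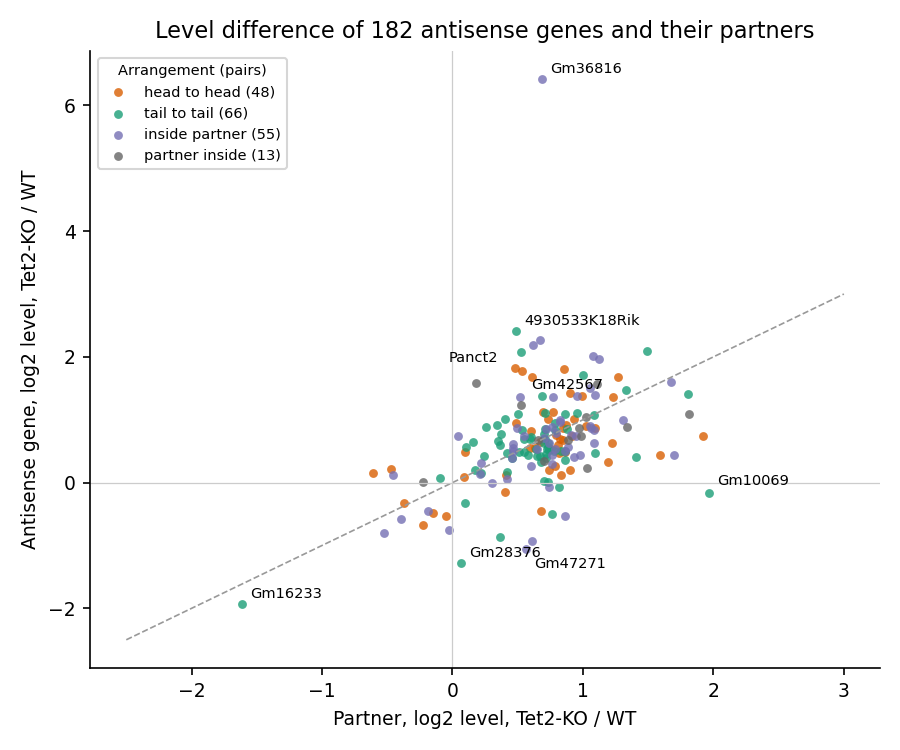
Log2 level difference, *Tet2*-KO over WT averaged over labelling times with ERCC scaling, of each antisense gene (vertical) against its partner (horizontal) for 182 pairs, coloured by arrangement, with equal differences on the dashed line. In 140 pairs both genes were called higher, *Gm36816* stands alone at 6.42, and *Gm10069* lies far below the line because *Pzp* rose by 1.97.

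Levels rose with labelling time for all 200 genes (98.3% of all genes were called higher at 40 than at 10 min and 0.0% lower), with a median log2 change of 1.98 against 2.12 for all genes. This rise rests on the ERCC scale: with TMM 28 of the 200 were higher and 89 lower (26.0% and 26.0% of all genes). Relative to the partner, more antisense genes fell than rose. As the mean of both genotypes, the ratio at 40 min was lower than at 10 min for 63 of 182 pairs and higher for 23, against 15.4% and 6.59% of all pairs, with a median log2 change of -0.14. In WT alone 64 fell and 14 rose (13.4% and 5.69% of all pairs), and in *Tet2*-KO alone 38 fell and 18 rose (8.69% and 3.3%). In head to head pairs 21 of 48 fell and 8 rose, and in tail to tail pairs 23 of 66 fell and 7 rose. Among genes inside the partner 15 of 55 fell and 8 rose, and among genes around the partner 4 of 13 fell and none rose. These counts were not made for all pairs of each arrangement, so arrangements cannot be compared by them. The part of depth in the changes with time was not tested.

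The deepest fall was that of *Gm21691* against *Mylk*, which encodes myosin light chain kinase, by 1.52 on the log2 scale (adjusted *p* = 2.67e-12, limma). In WT there were 198, 151 and 156 reads per 100 *Mylk* reads at 10 min and 71.2, 66.7 and 58.0 at 40 min. In *Tet2*-KO there were 165, 128 and 99.5 at 10 min and 35.9, 38.4 and 45.0 at 40 min. The 10 and 40 min libraries were apart in both genotypes. *1700034P13Rik*, head to head with the deubiquitinase gene *Vcpip1*, fell by 1.46. Its reads per 100 *Vcpip1* reads went from 33.2 ± 6.30 to 8.28 ± 1.54 in WT and from 10.4 ± 2.49 to 5.46 ± 1.19 in *Tet2*-KO. *Gm17232* inside *Tdh*, the threonine dehydrogenase gene that mES cells express highly, fell by 1.33, from 6.59 ± 0.55 to 3.24 ± 0.72 in WT and from 8.12 ± 1.94 to 2.61 ± 0.46 in *Tet2*-KO.

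The largest rises were those of *Gm48293* inside the adhesion gene *Clmp* with 1.07 (adjusted *p* = 1.6e-07), *5031415H12Rik* inside the synaptic scaffold gene *Dlgap1* with 1.02 and *4930566F21Rik* beside *4930548H24Rik* with 0.98. *Gm48293* went from 25.4 ± 7.11 to 43.4 ± 2.61 reads per 100 *Clmp* reads in WT and from 19.4 ± 4.31 to 48.9 ± 7.15 in *Tet2*-KO. *5031415H12Rik* went from 5.73 ± 2.02 to 10.8 ± 1.01 and from 8.97 ± 0.66 to 19.1 ± 2.39. It was chosen through *Tet2*-KO (727 reads in WT and 1034 in *Tet2*-KO), a choice that favoured its higher ratio in *Tet2*-KO. With the nearest start, *Gpn1*, as the partner of *4930566F21Rik*, its change was -0.21 and was not called.

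**Figure D3:**
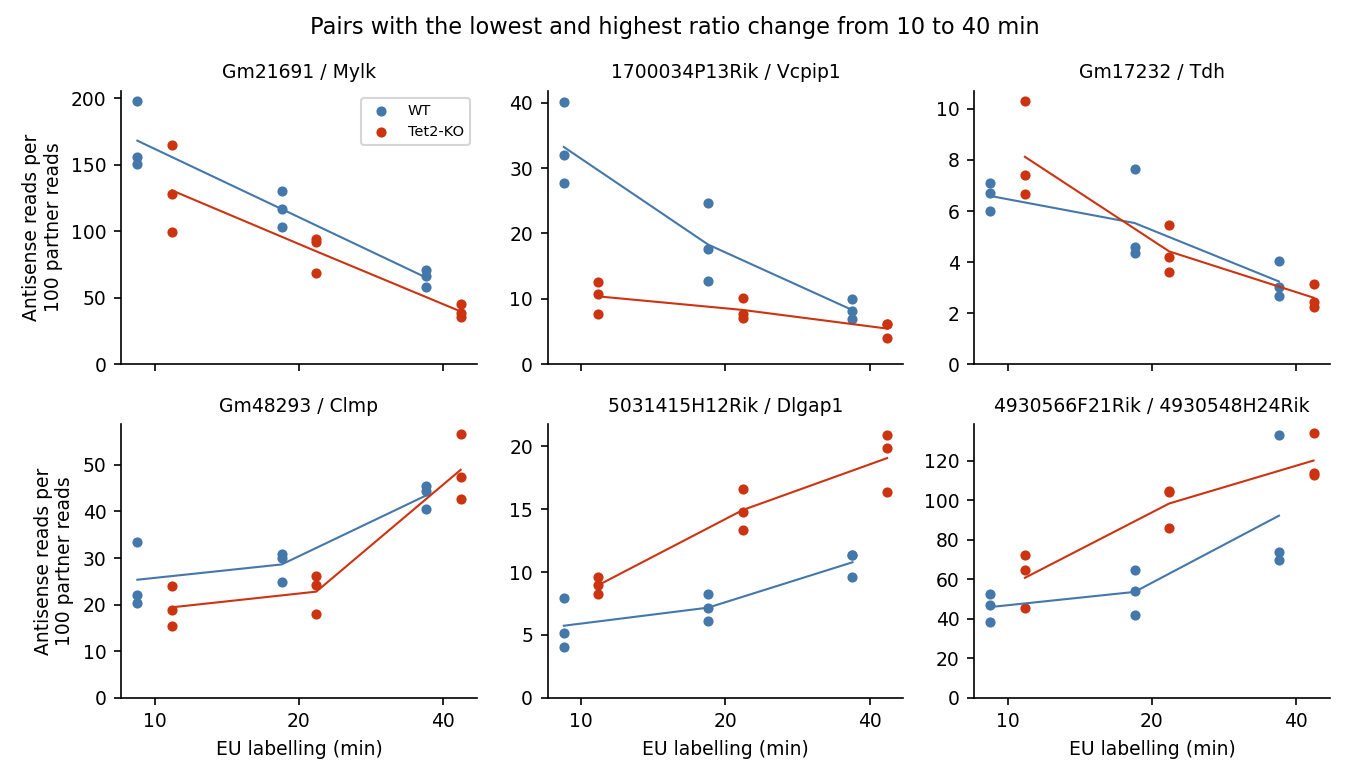
Antisense reads per 100 partner reads in each library against EU labelling time in min for the 3 pairs with the deepest fall (upper row) and the 3 with the largest rise (lower row) from 10 to 40 min, WT in blue and *Tet2*-KO in red, with lines joining group means. *Gm21691*, *1700034P13Rik* and *Gm17232* fell in both genotypes and the lower 3 rose in both.

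The change of the ratio from 10 to 40 min was compared between genotypes by the interaction term. It was called higher in *Tet2*-KO than in WT for 9 of 182 pairs and lower for 4 (0.999% and 0.699% of all pairs). For *1600020E01Rik* the ratio to *Pcbp1* fell by 1.09 in WT and by 0.39 in *Tet2*-KO, a difference of 0.70 ± 0.12 (adjusted *p* = 0.00234, limma). Its reads per 100 *Pcbp1* reads went from 1044 ± 175 to 485 ± 10.1 in WT and from 710 ± 45.9 to 540 ± 36.8 in *Tet2*-KO. *Gm10069* fell by 0.69 in WT and stood at 0.15 in *Tet2*-KO, a difference of 0.84 ± 0.16. *Tbx3os1* fell by 0.78 in WT and by 0.41 in *Tet2*-KO, a difference of 0.37 ± 0.09. Its reads per 100 *Tbx3* reads were 36.6, 36.7 and 38.0 in WT at 10 min and 22.1, 22.2 and 20.7 at 40 min, and 32.4, 32.1 and 28.2 and then 23.1, 22.9 and 23.7 in *Tet2*-KO. The genotypes were thus apart at 10 min, with *Tet2*-KO lower. At 40 min they were closer, with the *Tet2*-KO values above those of WT. *Gt(ROSA)26Sor* fell by 1.09 and 0.60, a difference of 0.49 ± 0.10. When edgeR was used with the partner count as offset, the interaction was called for *1600020E01Rik* alone (adjusted *p* = 0.0317), and the adjusted *p* of the other 12 pairs lay between 0.0511 and 0.138. For the levels, the *Tet2*-KO to WT difference was called larger at 40 than at 10 min for 1 of the 200 genes and smaller for 21 (0.552% and 19.3% of all genes), and with TMM for 28 and 8 (3.89% and 6.13%).

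**Figure D4:**
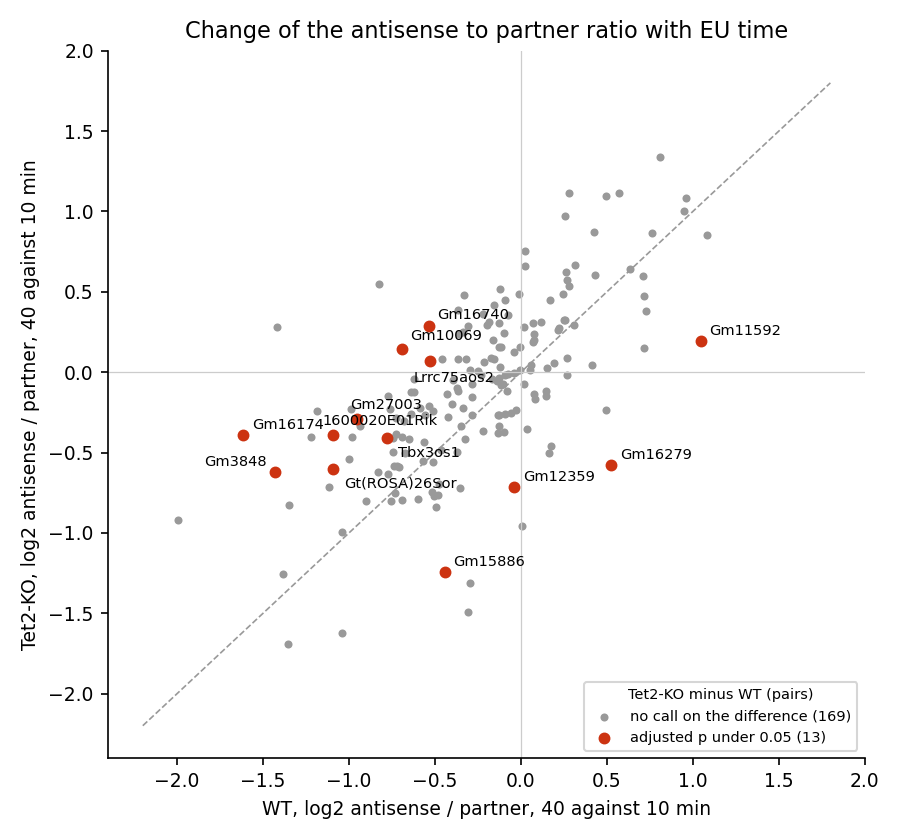
Log2 change of the antisense to partner ratio from 10 to 40 min of EU in *Tet2*-KO (vertical) against WT (horizontal) for 182 pairs, with equal changes on the dashed line and the 13 pairs called by limma's interaction term in red. Of the red points 9 lie above the line and 4 below it.

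Genes of the machinery that degrades or ends antisense transcripts were read as a list. It was built around the nuclear exosome, its adaptors NEXT and PAXT and the Integrator complex. Beside these it held *Ncbp1*, *Ncbp2*, *Ncbp3*, *Srrt*, *Tent4a*, *Tent4b*, *Zcchc7*, *Dis3l*, *Nabp1* and *Nabp2*. Of 41 tested genes 40 were called higher in *Tet2*-KO, with a median log2 fold change of 0.72 against 0.70 for all genes, of which 80.5% were called higher. *Mtrex*, the helicase shared by the exosome adaptors, was the only one called lower and fell by 0.73 (adjusted *p* = 1.82e-38, edgeR). It was named after its value was seen. Its level was 25.3 ± 1.76 in WT and 18.7 ± 1.24 in *Tet2*-KO at 10 min, 77.8 ± 5.52 and 40.7 ± 3.49 at 20 min, and 137 ± 6.64 and 78.1 ± 6.21 at 40 min, with no overlap at any time. With TMM scaling, 11 of the 41 were called higher and 11 lower (28.6% and 27.9% of all genes), and *Mtrex* stood at -1.42. *Dis3*, a catalytic subunit of the exosome, stood at 0.52 and *Exosc10*, another, at 0.55, both below the median of all genes. Others stood above that median, such as *Exosc5* at 1.01 and *Dis3l* at 1.03. *Zcchc8*, a scaffold of NEXT, stood at 0.88. The part of *Mtrex* in the antisense levels was not tested.

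Of the partners, *Tet2* was the only one on the list of DNA methylation and TET genes and *Tbx3* the only one on the list of pluripotency genes. None of the partners, taken by the longest shared span, was on the list of Polycomb and H2A deubiquitination genes. By the nearest start, the partner of *1110002L01Rik* was *Asxl2*, a gene of the ASXL family, in place of *Kif3c*. Over these lists themselves, 20 of 23, 20 of 27 and 37 of 39 tested genes were called higher in *Tet2*-KO and 0, 1 and 0 lower (edgeR), against 80.5% and 4.15% of all genes. With TMM, 7, 8 and 17 were higher and 8, 16 and 12 lower. *Tbx3os1* rose by 0.90 ± 0.06 and *Tbx3* by 1.03 ± 0.05 averaged over times. The level of *Tbx3os1* was 3.71 ± 0.32 in WT and 8.60 ± 0.09 in *Tet2*-KO at 10 min, and 14.2 ± 0.98 and 28.1 ± 1.86 at 40 min, and that of *Tbx3* 10.0 ± 1.02 and 27.9 ± 2.05, and 65.8 ± 3.18 and 121 ± 7.68. Both genes of the pair were higher in *Tet2*-KO in every library of a time.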

How the data were processed

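The authors trimmed reads with Trimmomatic 0.39, aligned them with HISAT2 2.2.1 to mm10 with GENCODE M19 and ERCC sequences, counted reads per gene with HTSeq 0.12.4 and deposited raw counts, without normalization. The library kit was strand-specific. HTSeq's strand and feature settings are not given in the sources used here and were read from the counts. Unassigned rows, 20.9 to 24.9% of each file's total, stayed out of all sizes. Names, biotypes, positions and strands came from GENCODE M21, which held 54409 of 54446 gene identifiers.

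Genes were kept by filterByExpr (minimum count 10), leaving 19910. Levels were tested by edgeR 4.0.16 (quasi-likelihood) with ERCC totals as library sizes. Log2((antisense + 0.5)/(partner + 0.5)) was tested by limma 3.58.1 (trend, robust) over 1001 pairs. Each fit had 6 groups and Benjamini-Hochberg adjustment at 0.05 over all features. DESeq2 1.42.0 (R 4.3.3) was an alternative. Other alternatives were TMM, other filters, another pseudocount (5), a partner offset, the nearest start, pairs without exon overlap, a replicate block and each library left out. A restriction to genes among the 200 most abundant by the reads of each genotype alone was added after seeing the data. Both fits were tested on simulated data. Same-numbered libraries' deviations correlated between -0.066 and 0.049, so replicate numbers did not pair samples.

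The members, gene lists and rules were chosen with earlier results of these data known. Named were the 10 most abundant genes; the 5 highest and 5 lowest differences of ratio and of level, called and without overlap at any time; the 3 highest and 3 lowest ratio changes with time; genes whose partner is on a pluripotency, DNA methylation or Polycomb list; and those at the edge of the selection.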

Additional observations from a re-analysis of the deposited data

Results flagged for a closer look

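The change of the antisense to partner ratio from 10 to 40 min of EU differed between genotypes by the interaction test for 4 of the pairs named above. *Tet2*-KO exceeded WT by 0.70 for *1600020E01Rik*, by 0.84 for *Gm10069*, by 0.37 for *Tbx3os1* and by 0.49 for *Gt(ROSA)26Sor* on the log2 scale (limma). Of the 182 pairs, 9 were called with a positive and 4 with a negative difference, against 0.999% and 0.699% of all pairs. For the levels with ERCC scaling, the genotype difference was larger at 40 than at 10 min for 1 gene, *Gm44206*, and smaller for 21 (0.552% and 19.3% of all genes). With TMM these were 28 and 8.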

How the results depend on the processing

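The number of antisense genes called depended on the scale. With TMM, 64 were higher and 83 lower over all times, against 61 and 83 with DESeq2's own size factors. By time these were 52 and 68 against 52 and 65 at 10 min, 38 and 68 against 37 and 68 at 20 min, and 63 and 45 against 62 and 45 at 40 min. Of all genes, TMM called 22.5% and 21.4% at 10 min, 20.3% and 18.2% at 20 min, and 19.7% and 18.6% at 40 min. Among the 170 genes abundant in both genotypes, an alternative chosen after seeing the data, 6 were lower. TMM called 11 of the turnover genes higher and 11 lower. Pairs without exon overlap numbered 53, so fewer could be called, 11 higher and 20 lower between genotypes, 6 and 17 between times, and 2 and 0 for the interaction (of all such pairs 13.1% and 17.8%, 5.41% and 12.1%, and 0.955% and 0.637%). Over all pairs, with or without exon overlap, edgeR with the partner offset gave 1 and 0 for the interaction. Per kb of gene span the median log2 antisense over partner was -0.72 in place of 0.07. With TMM and with DESeq2's own factors, the level difference turned to -0.58 and -0.58 for *1600020E01Rik*, -0.0686 and -0.0735 for *Gm26542*, -0.032 and -0.037 for *1110002L01Rik*, -0.33 and -0.34 for *Gm21691*, -0.067 and -0.0713 for *Gm17232*, -0.54 and -0.54 for *Gt(ROSA)26Sor*, and -0.47 and -0.48 for *Junos*. With the nearest start as partner the ratio turned to 0.48 for *Gm29724*, -0.15 for *1110002L01Rik* and, over time, -0.21 for *4930566F21Rik*. Without 1 library, the counts over all times ranged from 159 to 169 higher and 18 to 19 lower for levels and from 43 to 45 and 59 to 67 for ratios. For the 10 min libraries the higher calls lay between 163 and 168 and the lower ones between 8 and 12. For 20 min the bounds were 85 and 103 for higher and 19 and 23 for lower calls, and for 40 min 142 and 155, and 9 and 12. Ratio changes with time ranged from 19 to 26 rises and 61 to 71 falls, and the interaction from 8 to 12 and from 2 to 6, the 2 being without *Tet2*-KO replicate 2 at 40 min. The call for *1600020E01Rik* was lost in 7 of these fits. A replicate block gave 165 and 18 for levels, 43 and 62 for ratios and 10 and 5 for the interaction. The cause of these changes was not tested. Of 1702 alternative values for the named genes, 1659 kept direction and side of the threshold.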
